A study of Mus musculus with 5 samples.

Results

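Of 10 genes that mark fat cells, 9 were measured on arrays of newborn mouse pancreas, out of 19938 genes tested. The members were picked by gene symbol. Adipoq, Fabp4, Plin1, Lpl, Cidec, Lep, Retn and Cfd are grouped here as general fat cell genes, and Ucp1 and Cidea are typical of brown fat. The general group includes products released mainly by white fat, such as leptin (Lep). Cfd, which encodes the adipokine adipsin, was matched by no probe set in the annotation used and was not analysed here.

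Whole pancreata were taken at postnatal day 1 from 2 control mice, labelled as not recombined, and 3 Pdx1cKO mice, in which Elastase-Cre removed floxed Pdx1. Control and mutant pups came from the same litter according to the series title. The alleles carried by the controls, the strain and the sex are not stated. The study describes Elastase-Cre as acting in exocrine tissue, so the arrays of whole organ also read cells in which Pdx1 was not targeted. Each sample was hybridised to its own Mouse Gene 1.0 ST array, and the authors deposited linear intensities whose medians are nearly equal between arrays.

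White adipocytes hold a single large fat droplet, release leptin and adiponectin, and store as triglyceride the fatty acids that Lpl frees from blood lipoproteins. Brown adipocytes hold many small droplets and burn fat as heat through Ucp1, which lets protons leak across the mitochondrial inner membrane. The transcription factors Pparg and Cebpa drive both types. Fat lies around and, in obesity or injury, within the pancreas, and in newborn mice brown fat is active while most visceral white fat is still forming.

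Before the fat cell genes are described, features of the arrays that touch them are given. The median intensity was 61 to 61.9 per array, and the lowest value on any array was 18 to 18.3. There are no detection calls, so whether a dim gene lies above background is unknown. Control 2 carried stomach transcripts, with all 9 measured stomach markers over 1 log2 above every other array and a summed intensity of 13382 against 437 to 549 elsewhere. Skeletal muscle transcripts were highest in Pdx1cKO mouse 1, where 7 of 8 muscle markers stood over 1 log2 above every other array. Liver markers summed to 4836 and 6498 on the control arrays, against 16044 to 40145 on the Pdx1cKO arrays. The pancreatic origin was evident in the acinar enzyme Cpa1, at 10406 and 8231 on the control arrays, against 1583 to 3255 on the Pdx1cKO arrays. Pdx1 itself was at 67.9 and 113 on the control arrays, against 48.4, 48.4 and 42.9 on the Pdx1cKO arrays. Xist was at 622 and 349 in Pdx1cKO mice 1 and 2 and at 33.5 to 53.4 on the other arrays, while the Y-linked Eif2s3y was at 22.4 and 24.9 in those mice and at 107 to 151 on the others. By these genes sex was not balanced between the groups.

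The promoters of the members that the results turn on are shown first. Cidec is the only member that stood over 1 log2 above all other arrays on a single array, and Ucp1 is the only member whose groups did not overlap. RefSeq's table for GRCm38.p6 has 8 windows for 7 of the 10 members, with 2 start sites for Cidec. The 250 bases before each start are printed 5′ to 3′. Capitals mark the hexamer AGGTCA, which nuclear receptors such as PPARγ use in repeats, and TTGCNNAA, a pattern bound by C/EBP factors, each searched on both strands.

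The first Cidec window lies on the minus strand at chr6:113435761-113436010, the second on the minus strand at chr6:113434765-113435014, and the Ucp1 window on the plus strand at chr8:83290098-83290347.
Cidec, first start: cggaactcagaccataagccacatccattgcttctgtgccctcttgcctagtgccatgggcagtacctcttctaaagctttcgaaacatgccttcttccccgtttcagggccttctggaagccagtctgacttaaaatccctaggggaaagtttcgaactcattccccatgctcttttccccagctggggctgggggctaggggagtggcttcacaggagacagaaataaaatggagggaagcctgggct
Cidec, second start: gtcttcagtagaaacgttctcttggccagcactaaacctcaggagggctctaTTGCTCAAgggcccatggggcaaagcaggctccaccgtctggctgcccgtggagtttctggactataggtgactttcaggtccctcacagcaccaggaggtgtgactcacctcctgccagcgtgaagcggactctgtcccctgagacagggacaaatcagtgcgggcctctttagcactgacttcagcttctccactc
Ucp1: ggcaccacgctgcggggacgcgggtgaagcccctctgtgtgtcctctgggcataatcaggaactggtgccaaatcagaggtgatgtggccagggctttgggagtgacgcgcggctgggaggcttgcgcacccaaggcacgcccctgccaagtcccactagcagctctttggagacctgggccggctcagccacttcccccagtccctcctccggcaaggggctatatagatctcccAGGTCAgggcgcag

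AGGTCA occurred once in the Ucp1 window, in none of the other member windows, and in 14.0% of all 32851 windows. TTGCNNAA occurred in windows of Cidec, Lep and Plin1 and in 9.56% of all windows. A direct repeat of AGGTCA with 1 base between the copies, the arrangement that PPARγ prefers, was in no member window and in 0.0335% of all windows. A single probe set reads Cidec, and which start its signal comes from was not tested.

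Of the 9 measured fat cell genes, 7 varied by less than 1 log2 over the 5 pancreata, and only Lpl and Cidec varied more. Among all genes, 6.67% ranged over at least 1 log2, so a smaller range is usual on these arrays. In the comparison of Pdx1cKO with control by limma over all genes, 0 of the 9 members passed an adjusted p of 0.05, and the percentage of all genes called at that threshold was 0 in each direction. At an unadjusted p under 0.05, 1 of the 9 was lower and 0 were higher, against 5.04% of all genes lower and 5.29% higher. The groups did not overlap for 1 member, lower in Pdx1cKO, against 11.7% of all genes lower and 12% higher, and with 9 members these counts are near the background. In whole tissue, fewer cells of a type and less RNA per cell cannot be told apart.

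The adipokines were dim in both groups. Adipoq encodes adiponectin, the most abundant protein that fat cells secrete, and had intensities of 22.9 and 25 on the control arrays, against 23.4, 22.9 and 22.4 on the Pdx1cKO arrays. Its values spanned 1.12-fold over the 5 arrays and the groups overlapped. The log2 fold change was -0.07 (limma standard error 0.0482, adjusted p = 0.515), with a 95% confidence interval of -0.20 to 0.07.

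Lep encodes leptin, the hormone that reports fat stores to the brain. Its intensity was 29.3 and 38.3 on the control arrays, against 29.3, 26.2 and 29.3 on the Pdx1cKO arrays. Control 2 was the highest array and the remaining control equalled Pdx1cKO mice 1 and 3, so the groups overlapped. This gave a log2 fold change of -0.25, with an interval of -0.66 to 0.17.

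Retn encodes resistin, which mouse fat cells secrete. It was at 40.4 and 37.1 on the control arrays, against 35.3, 38.1 and 34.5 on the Pdx1cKO arrays, and Pdx1cKO mouse 2 lay between the controls. It had a log2 fold change of -0.11, with an interval of -0.30 to 0.08.

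The lipid droplet proteins gave a flat gene and an uneven gene. Plin1, which coats the droplet of fat cells and controls access of lipases, was listed at the identical value of 48.1 on all 5 arrays. Such identical values were held by 808 of the 19938 genes, or 4.05%, and carry no information on replicate spread. Its fitted fold change of 0.00 is therefore no measurement of equality.

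Cidec, which fuses small droplets into large ones, was at 50.3 in control 1 and 226 in control 2, and at 45.6, 52.8 and 46.3 in the Pdx1cKO mice. Control 2 alone was high, 4.29-fold above the next array, and control 1 lay among the Pdx1cKO values. The log2 fold change of -1.15 had an interval of -3.26 to 0.96 (limma adjusted p = 0.515). Without control 2 it was -0.06, and without control 1 it was -2.23, which then passed with a limma adjusted p = 0.0126, the spread of that fit coming from the Pdx1cKO arrays alone.

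The array with high Cidec is the one rich in stomach markers. The gastric gene Gkn2 had an intensity of 3014 in control 2 and 25.1 to 26.4 elsewhere. Among 1327 other genes that ranged over at least 1 log2, those nearest to Cidec in profile, listed after its values were seen, were Tmprss2, Abcc3, Dsc2, Prss32, B3gnt3, Aqp3, Duoxa2, Scnn1g, Vil1 and Teddm3. Likeness was measured as the root-mean-square difference of log2 values, each minus its gene's mean over 5 arrays, and ran from 0.0699 to 0.115. Several are epithelial: Vil1, the villin of the gut brush border, was at 217 in control 2 and 42.2 to 49.9 on the other arrays, and Dsc2 is a desmosomal cadherin. Adipoq was 1.07-fold above the next array in control 2, at an intensity of 25 that lies near the lowest values of the arrays. Lep was 1.31-fold and Fabp4 1.18-fold above the next array there. Control 2 was the highest array for 5 members (Adipoq, Fabp4, Cidec, Lep and Cidea), beside 24.3% of all genes not identical on every array. The parts of stomach, other gut tissue and fat cells in the Cidec signal were not tested.

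Of the genes of fatty acid uptake and transport, neither passed the test. Fabp4, a fatty acid binding protein of fat cells that capillary endothelium and macrophages also make, was at 302 and 404 on the control arrays, against 341, 341 and 342 on the Pdx1cKO arrays. The mutants lay between the controls, and the log2 fold change was -0.03 with an interval of -0.44 to 0.37. Leaving out control 1 gave -0.24 (limma adjusted p = 0.00143) and leaving out control 2 gave 0.18 (limma adjusted p = 0.00205), so the direction turned with the control kept. The SD of the Pdx1cKO log2 values was 0.00139 against 0.297 in the controls.

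Lpl, the lipase that frees fatty acids from lipoproteins and is made by fat cells, muscle, macrophages and newborn liver, was at 379.7 and 224 in the controls. In the Pdx1cKO mice it was at 330.1, 494 and 259.5. The groups overlapped, with the highest value in Pdx1cKO mouse 2 and the lowest in control 2. Its log2 fold change was 0.26 with an interval of -0.91 to 1.43, and it was -0.12 without control 2 and 0.01 without Pdx1cKO mouse 2.

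Markers of the other cells that make Fabp4 and Lpl are given beside them. All 8 endothelial markers were measured, summing to 1620 and 2132 on the control arrays, against 2246 to 2654 on the Pdx1cKO arrays, and 5 of 8 were higher in Pdx1cKO without overlap, beside 12% of all genes. All 9 macrophage markers were measured, summing to 2639 and 3703 on the control arrays, against 3088 to 3394 on the Pdx1cKO arrays. Control 2 had the lowest sum of both lists. Fabp4 was highest in control 2, where these markers were lowest, while Lpl was lowest there. The genes nearest to Lpl in profile were listed after its values were seen. They were Creg1, H6pd, Glud1, Serpina10, F7, Urah, Csad, Slc36a2, 1810010H24Rik and Vsig4, at root-mean-square differences of 0.0892 to 0.171. F7 encodes a clotting factor made by liver. Liver markers summed highest in Pdx1cKO mouse 2, the array with the most Lpl, but lowest in control 1 (4836), where Lpl was higher than in Pdx1cKO mouse 1, whose liver sum was 34650. The part of these cells in either gene was not tested.

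**Figure D1:**
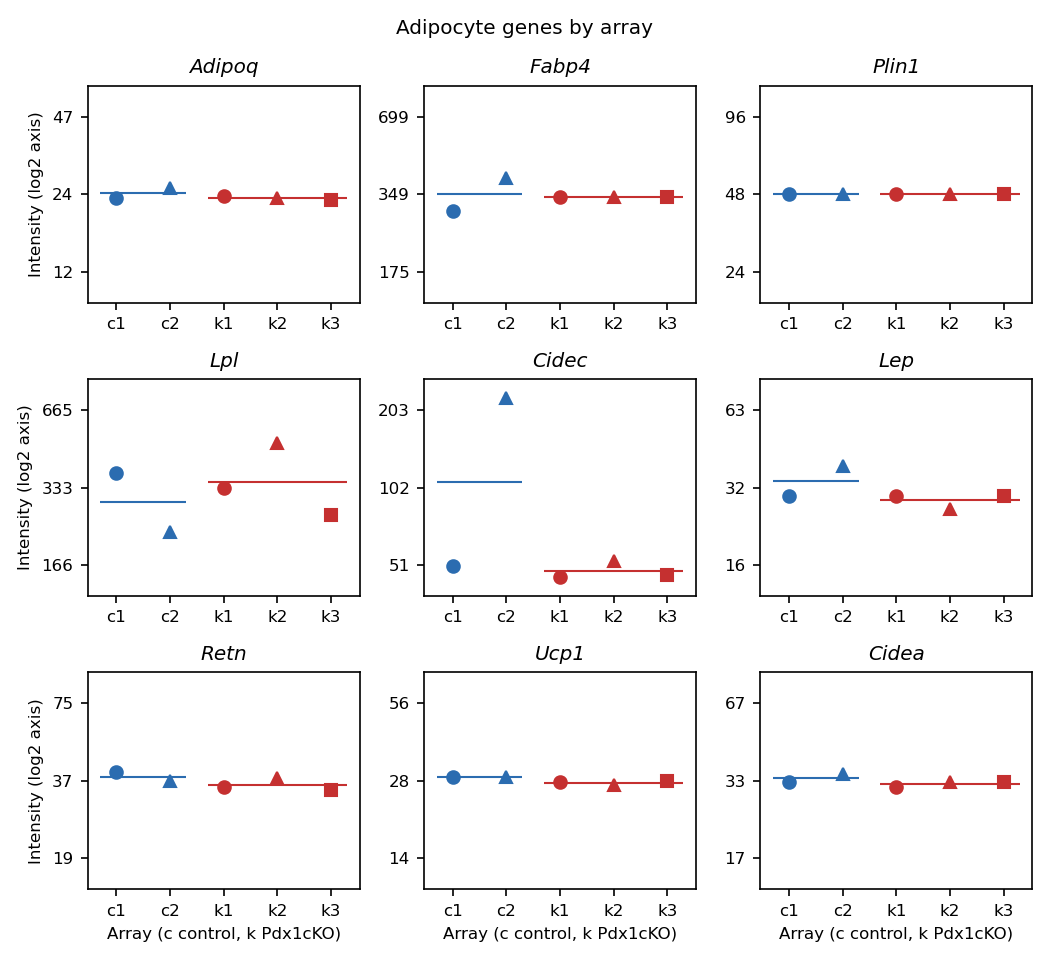
Intensity of the 9 measured adipocyte genes by array, with control mice in blue (c1, c2), Pdx1cKO mice in red (k1 to k3) and the geometric mean of each group as a line. Each panel has a log2 axis of the same span. Cidec is high in control 2 alone, at 226, Lpl ranges from 224 to 494, and Adipoq, Retn, Ucp1 and Cidea are nearly level. Plin1 is listed at the identical value on every array, which is no measurement of equality.

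The brown fat genes were dim too, spanning 1.07-fold (Ucp1) and 1.13-fold (Cidea) over the arrays. Ucp1, the heat-producing uncoupler that defines brown adipocytes, was at 28.9 and 28.8 on the control arrays, against 27.6, 27 and 27.8 on the Pdx1cKO arrays. Every mutant lay below both controls, but the gap was small, at 0.952 times the control level. The log2 fold change was -0.07 with an interval of -0.12 to -0.02 (limma unadjusted p = 0.0174, adjusted p = 0.342), and an exact permutation test of 2 against 3 samples cannot go below p = 0.1. Whether an intensity this low is Ucp1 transcript or background is unknown.

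Cidea, a droplet protein of brown fat related to Cidec, was at 33 and 35.3 on the control arrays, against 31.4, 33 and 33 on the Pdx1cKO arrays. The groups overlapped, since control 1 equalled Pdx1cKO mice 2 and 3. The log2 fold change was -0.07 with an interval of -0.20 to 0.05. Cidea did not follow Cidec in control 2, where it was 1.07-fold above the next array.

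The genes nearest in profile to the mean of Ucp1 and Cidea, among all 19929 other genes, were Olfr229, Hyal6, Vmn1r219, Olfr818 and Olfr299, at root-mean-square differences of 0.00615 to 0.00868. Of these, the Olfr genes encode odorant receptors and Vmn1r219 a pheromone receptor, families used mainly by sensory neurons of the nose. Their log2 fold changes of -0.07 to -0.06 follow from how they were picked. The same listing for the general genes used the mean of Lpl and Cidec, the only members to range over at least 1 log2. It gave Aqp7, a glycerol channel of fat cells, first, at 0.0323, then Slc35g1, Cpt2, Mia2, Gjb2, Slc39a4, Shisal2a, Cib1, Ppif and Pip5k1b, up to 0.133. Lpl and Cidec themselves differed by 1.18, running opposite ways in control 2, so their mean resembles neither gene closely (0.59 from each).

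Brown and general genes were also set against each other. Their middle log2 fold change was -0.07 for the 7 general genes and -0.07 for the mean of Ucp1 and Cidea, against 0.00 for all genes. The general median falls on Adipoq, with the identical values of Plin1 counted among the 7. Adipoq, Ucp1 and Cidea lie below the lower quartile of gene means (36.4), and whether they lie above background is unknown. By array, the brown mean minus the general median, each relative to its control mean, was 0.04 and -0.04 on the control arrays, against -0.06, -0.04 and 0.11 on the Pdx1cKO arrays. The groups overlapped. No test was run on these summaries, because members are not replicates.

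**Figure D2:**
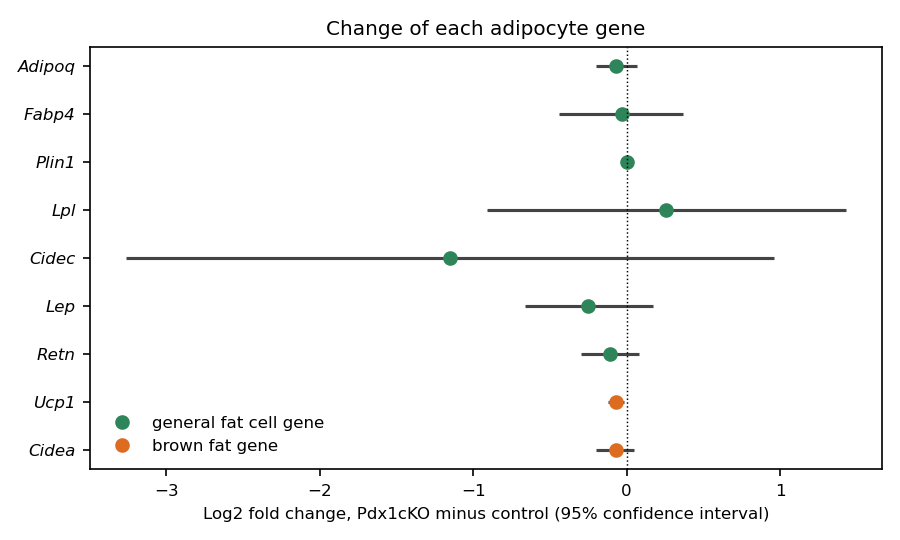
Log2 fold change, Pdx1cKO minus control, of each measured adipocyte gene (points; green, general fat cell gene; orange, brown fat gene) with its 95% confidence interval from limma (lines). All intervals but that of Ucp1, which runs from -0.12 to -0.02, include 0, and those of Cidec and Lpl are the widest.

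The wider programme of fat cells was read from 10 lists of 125 genes, of which 117 were measured. None passed an adjusted p of 0.05, 5 were lower and 9 higher in Pdx1cKO at an unadjusted p under 0.05, and the groups did not overlap for 9 lower and 29 higher. Those unadjusted counts are 4.27% and 7.69%, beside 5.04% and 5.29% among all 19938 genes tested. Without overlap, 7.69% were lower and 24.8% higher, beside 11.7% and 12% of all genes, with no test of that difference. Over the 117 the median was 0.10 on the log2 scale.

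Among the 11 adipogenic transcription factors the median log2 fold change was 0.12. Pparg, the master regulator of fat cells, which gut epithelium also expresses, was at 80.5 and 323 on the control arrays, against 82.7, 92 and 92 on the Pdx1cKO arrays. Control 2 stood highest, as for Cidec, 3.51-fold above the next array, and control 1 was the lowest array. The profiles of Cidec and Pparg differed by a root-mean-square of 0.163. Ebf1, a factor of early fat and B cells, was at 226 and 163 on the control arrays, against 254, 234 and 249 on the Pdx1cKO arrays, without overlap, and its log2 fold change was 0.36 (limma adjusted p = 0.515). Of 6 lymphocyte markers, 5 were higher without overlap, beside 12% of all genes, among them the B cell receptor genes Cd79b (1.38) and Cd79a (0.65) on the log2 scale. Their part in Ebf1 was not tested. Zfp423, which commits progenitors to the fat lineage, also did not overlap, with a log2 fold change of 0.12. Cebpa was highest in Pdx1cKO mouse 2, at 205 against 78.7 to 98.8 on the other arrays.

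Genes of fat progenitors, which other stromal cells share, had a median log2 fold change of 0.39 over 8 measured. Pdgfrb, a receptor of pericytes and progenitors, was at 226 and 177 on the control arrays, against 359.9, 288 and 327 on the Pdx1cKO arrays, a log2 fold change of 0.69 (limma adjusted p = 0.324). Pdgfra and Icam1 did not overlap either, with log2 fold changes of 0.50 and 0.47. With Dlk1, described under other observations, 4 of 8 were higher without overlap, beside 12% of all genes. At an unadjusted limma p under 0.05, 3 of 8 were higher, beside 5.29% of all genes. All 7 mesenchyme markers were measured, summing to 12664 and 17218 on the control arrays, against 16720 to 19189 on the Pdx1cKO arrays. These markers had a median log2 fold change of 0.27, and 3 of 7 were higher without overlap. Their part in the progenitor values was not tested.

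Droplet proteins and lipolysis genes had lower medians than the progenitors. The 11 droplet genes beside the members had a median log2 fold change of 0.05. Plin5, a droplet protein of oxidative tissue, and Plin3, a ubiquitous droplet protein, did not overlap, with log2 fold changes of 0.30 and -0.20. The 7 lipolysis genes had a median of -0.18, the lowest of the 10 lists. Without overlap, 2 were lower and 1 higher, beside 11.7% and 12% of all genes. At an unadjusted limma p under 0.05, 1 of the 7 was lower. The monoglyceride lipase Mgll had a log2 fold change of -0.47 (limma unadjusted p = 0.0425), at 246 and 241 on the control arrays, against 146, 193 and 193 on the Pdx1cKO arrays. Pnpla2, the triglyceride lipase ATGL, had -0.35, and the phosphodiesterase Pde3b had 0.20. Of 8 fatty acid uptake genes, only the lipoprotein receptor Lrp1 did not overlap, with 0.37, beside 12% of all genes higher. The fatty acid transporter Cd36 was at 209 to 221 on all arrays.

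Enzymes that make fatty acids and triglyceride were higher without overlap for 5 of 18, beside 12% of all genes, with a median log2 fold change of 0.28. Scd2, a stearoyl-CoA desaturase, was at 755 and 719 on the control arrays, against 1689, 1646 and 1769 on the Pdx1cKO arrays. This log2 fold change of 1.21 had an interval of 1.08 to 1.33, and its limma adjusted p = 0.0802 missed the threshold. Its paralog Scd1, the main isoform of fat and liver, was at 241 and 97.1 on the control arrays, against 294, 455 and 372 on the Pdx1cKO arrays, a log2 fold change of 1.27 with an interval of -0.14 to 2.67. Acaca, the rate-limiting carboxylase of fatty acid synthesis, had 0.43. These enzymes are also made by liver, whose markers summed to 34650, 40145 and 16044 in Pdx1cKO mice 1 to 3. Scd1 was highest in Pdx1cKO mouse 2, as the liver sum was. Scd2 (1769) and Acaca (150.1) were highest in Pdx1cKO mouse 3, the mutant with the lowest liver sum. The part of liver in these values was not tested.

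Of 16 secreted and surface proteins, 6 were higher and 1 lower without overlap, beside 12% and 11.7% of all genes. The lower gene, named after its value was seen, was the activin receptor Acvr1c, with a log2 fold change of -0.27 (limma unadjusted p = 0.0176). Agt (angiotensinogen) was at 228 and 149 on the control arrays, against 812, 1281 and 316 on the Pdx1cKO arrays, and Rbp4 (retinol-binding protein) was at 502 and 439 and at 1867, 2772 and 610.3. Both are known as liver as well as fat cell products, and in both Pdx1cKO mouse 2 was highest and mouse 3 the lowest mutant, as in the liver sums. The part of liver was not tested. Their log2 fold changes were 1.90 and 1.64, with intervals that included 0. Car3, a carbonic anhydrase of fat, muscle and liver, had 1.10. Adig, a small protein found in fat cells, was at 36.2 to 36.7 on all 5 arrays.

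Regulators and heat production genes of brown fat were listed apart. The regulators had a median log2 fold change of -0.04 over 11 measured. Without overlap, 2 were lower and 3 higher, beside 11.7% and 12% of all genes. Bmp7, a growth factor that promotes brown fat and is also made by epithelia, was at 399 and 258 on the control arrays, against 135, 165 and 165 on the Pdx1cKO arrays, a log2 fold change of -1.05 (limma adjusted p = 0.319). Ppara, a regulator of fatty acid oxidation in liver and brown fat, had 0.93. It was at 55.3 and 58.7 on the control arrays, against 109, 166 and 70.6 on the Pdx1cKO arrays. The mutants ranked for Ppara as in the liver sums, and the part of liver was not tested. The coactivator Ppargc1a had 0.32. Prdm16 and Ebf2, named after their values were seen, did not overlap either, with log2 fold changes of -0.18 and 0.19. Dio2, Zic1 and Lhx8, used by brown fat, were at 33.7 to 36.7, at 26.2 to 28.1 and at 35.4 on every array. The identical value of Lhx8 is no measurement of equality.

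Among 18 genes of brown fat mitochondria and heat production the median log2 fold change was 0.02. Cox8b, a cytochrome oxidase subunit of brown fat, heart and skeletal muscle, was at 31.4 and 30.9 on the control arrays, against 162, 36.7 and 42.2 on the Pdx1cKO arrays. Pdx1cKO mouse 1 was 3.85-fold above the next array. Cox7a1, a subunit with the same tissues, was highest there too, at 170.4 against 51 to 86.4. The skeletal muscle markers summed to 9581 in that mouse and 1183 to 3699 on the other arrays, and Myh8, the perinatal myosin, was at 1234 there. Ucp1 and Cidea were at 27.6 and 31.4 in the same mouse. The part of muscle in Cox8b and Cox7a1 was not tested. Gatm, which makes the creatine precursor and is abundant in acinar cells, was at 2030 and 1001 on the control arrays, against 429, 362 and 463 on the Pdx1cKO arrays, a log2 fold change of -1.78 (limma adjusted p = 0.293). Acinar markers were lower without overlap in 7 of 7, beside 11.7% of all genes, and their part in Gatm was not tested. Pank1, a coenzyme A kinase, had 0.69, at 73.1 and 74.7 on the control arrays, against 123, 159 and 87.5 on the Pdx1cKO arrays. The mutants ranked for Pank1 as in the liver sums, and the part of liver was not tested.

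**Figure D3:**
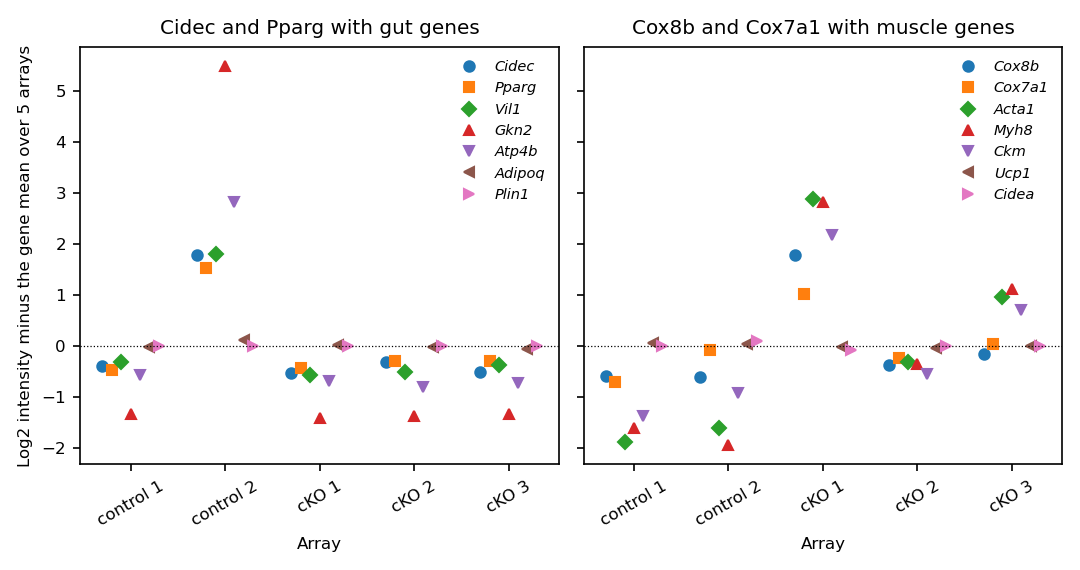
Log2 intensity minus each gene's mean over the 5 arrays, for Cidec and Pparg with gut genes and the fat cell genes Adipoq and Plin1 (left), and for Cox8b and Cox7a1 with muscle genes and the brown fat genes Ucp1 and Cidea (right). Cidec, Pparg and the gut genes are high in control 2, and Cox8b, Cox7a1 and the muscle genes in Pdx1cKO mouse 1, and Adipoq, Ucp1 and Cidea lie close to 0 on each array. Plin1 holds the same value on all 5 arrays, which is no measurement of equality. Lep and Fabp4, also highest in control 2, are not shown.

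The last list held 9 genes of beige fat cells and of white fat depots. Tmem26, a surface marker of beige fat cells, was at 125 and 118 on the control arrays, against 210.3, 195 and 227 on the Pdx1cKO arrays. Its log2 fold change of 0.79 had an interval of 0.56 to 1.03 (limma unadjusted p = 0.000963, adjusted p = 0.183). Hoxc8 and Tcf21, developmental factors of trunk tissue and visceral mesenchyme, were also higher without overlap, with 0.25 and 0.21. That made 3 of 9 higher without overlap, beside 12% of all genes. The remaining 6 genes of the list overlapped. They were Tnfrsf9 (0.10), Tbx1 (0.06), Cited1 (-0.05), Hoxc9 (0.00), Wt1 (0.32) and Agtr2 (0.45). Hoxc9 was listed at the identical value on every array, which is no measurement of equality.

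**Figure D4:**
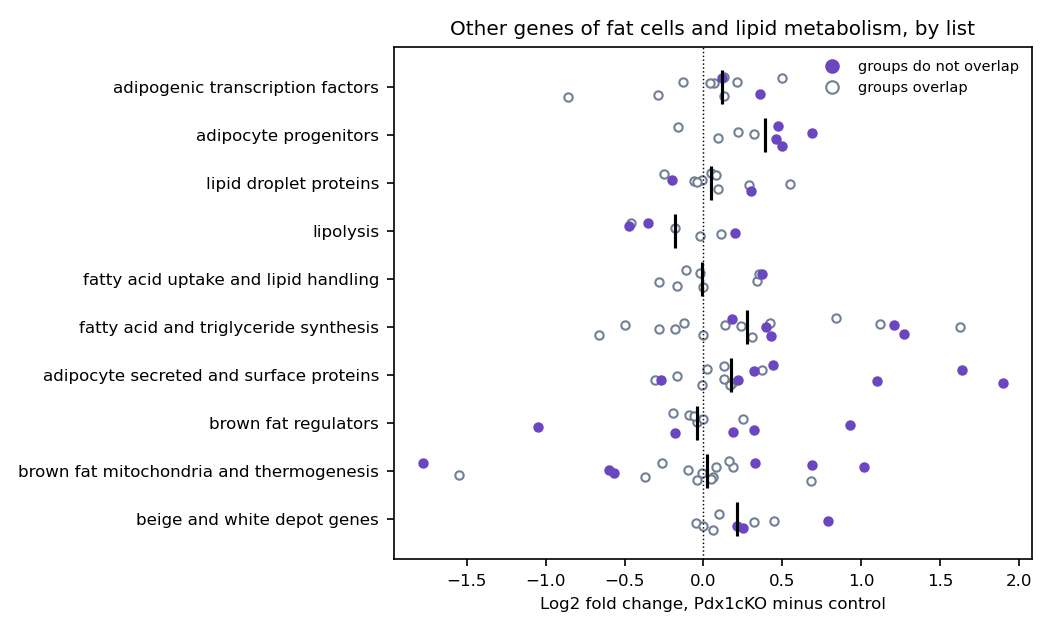
Log2 fold change, Pdx1cKO minus control, of each measured gene in 10 lists of fat cell and lipid metabolism genes (filled, groups do not overlap; open, groups overlap; bars, list medians). List medians lie between -0.18 and 0.39, and the farthest points are Gatm at -1.78 and Agt at 1.90.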

How the data were processed

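Pancreas RNA of 2 control and 3 Pdx1cKO newborns was hybridised to 1-colour arrays, 1 per mouse, and grouped by the labels. The intensities deposited by the authors are linear values for 28853 probe sets, made with GeneSpring GX. For the background correction, normalization and probe set summary, the method was not given in the sources used here. Of all probe sets, 67.7% hold an exact tie between arrays.

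Log2 of the intensities was taken with no pseudocount. Probe sets were named from the platform annotation (21789 with 1 symbol, 1621 with several, 5443 unnamed here), and those with 1 symbol were averaged into 19938 genes. Each measured member has 1 probe set. Of the 9, 5 lay above the lower quartile of gene means (36.4). Python 3.11.15 with pandas 2.3.3 and R 4.3.3 with limma 3.58.1 (lmFit, eBayes, Benjamini-Hochberg adjustment over all genes, threshold 0.05) were used, and this fit was tested on simulated data beforehand. The small number of arrays, 5 in all, limits the precision.

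The members and lists were chosen with earlier results of these data known. Named genes are the members, up to 3 genes per list with the largest fold change among those without overlap, the nearest profiles, and markers of other tissues. Others (Pparg, Cebpa, Cd36, Adig, Dio2, Zic1, Lhx8, Cox7a1) and the nearest profiles of Cidec and Lpl alone were chosen after their values were seen. Alternatives were median scaling, quantile normalization, a filter on dim genes, single probe sets, a replicate block, array weights, trended and robust eBayes, leaving out each array and the methods' t-test.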

Additional observations from a re-analysis of the deposited data

How the results depend on the processing

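Plin1, at 0.00, has no direction to keep. Of 100 fold changes of the other members under 13 alternatives, 95 kept their direction and side of the threshold, and Adipoq was at 0.00 without control 2. Leaving out control 2 turned Fabp4 to 0.18 (then past the threshold) and Lpl to -0.12, and leaving out control 1 brought Fabp4 (-0.24) and Cidec (-2.23) past the threshold. Over the left-out arrays Lpl ranged from -0.12 to 0.64. Members past it numbered 0 to 2 over the left-out arrays and 0 under every other alternative, and members at an unadjusted p under 0.05 numbered 1 to 4 over the left-out arrays and 0 with quantile normalization, array weights, the filter on dim genes and the replicate block. The brown fat mean was -0.10 with median scaling and -0.10 to -0.05 over the left-out arrays. The general median was -0.13 to -0.05 over those arrays, and brown minus general was -0.03 to 0.03.

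Over all genes, leaving out an array gave 0 to 2072 lower and 0 to 1604 higher genes, and 638 to 3694 lower and 711 to 2958 higher at an unadjusted p. Among the left-out arrays, adjusted calls came only from leaving out a control (1783 lower and 1604 higher without control 1, 2072 and 995 without control 2). Those fits keep 1 control and assume that it varies as the mutants do. The methods' t-test gave 807 lower and 734 higher genes at an unadjusted p under 0.05, of which 7 and 3 passed after adjustment. Array weights gave 391 lower and 241 higher genes at an unadjusted p. With replicate number as a block, 605 lower genes had an unadjusted p under 0.05, against 1005 without it, and no gene passed after adjustment. Same-numbered arrays deviated together hardly at all (correlations of 0.0325 and -0.00297 across genes, which are not independent). With 2 controls, whose deviations from their mean mirror each other, this check cannot decide whether the numbers are pairs. The numbers were not taken as pairs in the main fit. The causes were not tested. Low signal limits Adipoq, Lep, Ucp1 and Cidea, which the filter at the lower quartile removed.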

Other observations

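Exact ties between arrays were held by 5 of the 9 members and 66.0% of all genes. In Lep, control 1 and Pdx1cKO mice 1 and 3 share the value 29.3, and in Cidea, control 1 and Pdx1cKO mice 2 and 3 share 33.

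Cideb, a liver and gut relative of Cidea and Cidec, was at 93.8 and 570.3 on the control arrays, against 329, 592 and 116 on the Pdx1cKO arrays, high both on the array with stomach transcripts and on the arrays with the most liver transcripts, whose parts in it were not tested. Ckmt1, a mitochondrial creatine kinase in the heat production list, was at 603 in control 2 and 64.2 to 77.1 elsewhere, 7.82-fold above the next array. Control 2 is the array with stomach transcripts, and the part of stomach in Ckmt1 was not tested. Dlk1, an imprinted inhibitor of fat cell formation, was at 3342 and 2793 on the control arrays, against 4313, 4245 and 4081 on the Pdx1cKO arrays, a log2 fold change of 0.46 (limma unadjusted p = 0.00907, adjusted p = 0.284). Dlk1 belongs to the progenitor list, whose genes other stromal cells share, and the part of those cells in it was not tested. Cideb, Ckmt1 and Dlk1 were chosen after their values were seen.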
